A study of Mus musculus with 8 samples.

Results

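The genes of the mitochondrial respiratory chain were followed in mouse melanoma cells grown with or without fibroblasts and with or without a BRAF inhibitor. They were chosen by symbol, as all genes whose name begins with Ndufa, Ndufb, Ndufc, Ndufs, Ndufv, Sdha, Sdhb, Sdhc, Sdhd, Uqcr, Cox4, Cox5, Cox6, Cox7, Cox8 or Atp5. Of 89 such genes with a named probe on the array (111 probes), 79 were measured (94 probes) and stand among 7357 genes tested. A gene counted as measured when a probe had a detection p, the p of its signal against the negative controls of its array, under 0.01 on at least 2 of the 8 arrays. By complex, 32 of 34 genes were measured for complex I, 3 of 3 for complex II, 6 of 8 for complex III, 14 of 19 for complex IV and 15 of 16 for complex V. A further 9 of 9 encode assembly factors, which help to build complexes I and II without being part of them (Ndufaf1, Ndufaf3, Ndufaf4, Ndufaf5, Ndufaf7, Sdhaf1, Sdhaf2, Sdhaf3 and Sdhaf4). Ndufa4 was counted with complex IV, where its protein sits. The symbol Ndufs5-ps is annotated as a pseudogene, so its probe may read Ndufs5 as well and its values are uncertain.

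The study asked how signals pass between cancer cells and fibroblasts. Its arrays hold RNA of 5555-mEGFP cells, a mouse melanoma line that carries a green fluorescent protein, in 4 groups of 2 arrays each. These were co-culture with MAF2-mCherry fibroblasts under PLX4720, co-culture under DMSO, mono-culture under PLX4720 and mono-culture under DMSO. Green cells of the co-cultures were separated by flow cytometry, and whether mono-cultures also passed the sorter is not stated. PLX4720, an inhibitor of mutant BRAF, was given for 24 h at 1 mM as the labels have it (the labels may mean a micromolar dose). Its solvent DMSO was given at 0.1% to the other cultures. Nothing says that the 2 arrays of a group come from separate cultures, so the spread behind each p-value is that between these arrays and may be technical. In such bulk RNA, fewer cells of a type and less RNA per cell cannot be told apart.

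The respiratory chain sits in the inner mitochondrial membrane. Complexes I and II pass electrons from NADH and succinate to ubiquinone, complex III passes them on to cytochrome c, and complex IV hands them to oxygen. Complexes I, III and IV pump protons as they do so, and complex V, the ATP synthase, lets the protons flow back and makes ATP. Most subunits are encoded in the nucleus, and their promoters are known for sites of the transcription factor NRF1 and of GABP, a factor of the ETS family. In some human melanoma lines, inhibition of BRAF is known to raise oxidative phosphorylation through MITF and the coactivator PGC1alpha.

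Promoters are shown for genes on which the results turn, to set a drug-responsive assembly factor and subunits beside a ubiquitous and a muscle-type subunit of complex IV. Each is given 5′ to 3′ on the strand of its gene, from 250 bases before to 50 bases after the start, from the RefSeq annotation of the mouse build GRCm38.p6. Capitals mark the NRF1 motif GCGCNTGCG (CGCANGCGC on the other strand) and the ETS motif CCGGAAG, which on the other strand reads CTTCCGG. The first is Ndufaf4, at chr4:24897833-24898132 on the plus strand, and the next Ndufa6, at chr15:82354242-82354541 on the minus strand. Cox6a1 lies at chr5:115348909-115349208 on the minus strand, Ndufv3 at chr17:31519865-31520164 on the plus strand and Cox7a1 at chr7:30183921-30184220 on the plus strand.
Ndufaf4: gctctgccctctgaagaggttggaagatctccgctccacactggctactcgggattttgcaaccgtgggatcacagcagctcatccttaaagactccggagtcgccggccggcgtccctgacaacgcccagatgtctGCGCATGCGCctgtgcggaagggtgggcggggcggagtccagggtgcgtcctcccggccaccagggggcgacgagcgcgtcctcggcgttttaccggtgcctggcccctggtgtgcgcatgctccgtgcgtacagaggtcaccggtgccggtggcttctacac
Ndufa6: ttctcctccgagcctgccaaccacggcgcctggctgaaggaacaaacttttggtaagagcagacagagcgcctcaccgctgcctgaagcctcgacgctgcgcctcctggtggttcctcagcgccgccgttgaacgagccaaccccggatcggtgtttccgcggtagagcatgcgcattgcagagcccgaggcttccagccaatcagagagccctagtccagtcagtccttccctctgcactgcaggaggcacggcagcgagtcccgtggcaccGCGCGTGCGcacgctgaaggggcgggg
Cox6a1: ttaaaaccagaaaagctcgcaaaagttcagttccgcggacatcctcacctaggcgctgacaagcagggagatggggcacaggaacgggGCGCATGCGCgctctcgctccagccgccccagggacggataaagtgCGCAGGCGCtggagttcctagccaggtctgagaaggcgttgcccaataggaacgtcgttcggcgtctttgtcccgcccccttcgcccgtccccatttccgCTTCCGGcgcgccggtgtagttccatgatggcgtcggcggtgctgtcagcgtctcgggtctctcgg
Ndufv3: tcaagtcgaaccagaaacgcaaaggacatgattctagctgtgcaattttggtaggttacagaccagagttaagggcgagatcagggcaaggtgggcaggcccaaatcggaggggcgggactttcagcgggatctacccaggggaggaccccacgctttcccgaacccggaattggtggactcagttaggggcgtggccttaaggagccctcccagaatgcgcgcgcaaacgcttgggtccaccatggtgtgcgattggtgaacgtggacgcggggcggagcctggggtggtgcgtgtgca
Cox7a1: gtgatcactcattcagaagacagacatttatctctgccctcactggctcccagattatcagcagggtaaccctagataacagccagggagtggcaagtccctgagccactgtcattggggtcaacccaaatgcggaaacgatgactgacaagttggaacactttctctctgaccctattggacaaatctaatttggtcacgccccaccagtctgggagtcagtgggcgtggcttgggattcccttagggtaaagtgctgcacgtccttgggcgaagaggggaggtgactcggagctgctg
Counted from the first base printed, the window of Ndufaf4 holds NRF1 matches on both strands at positions 138 and 139, and that of Ndufa6 one at position 274, which lies after the start. Cox6a1 has NRF1 matches at positions 89 and 90, on both strands, and at position 135, and an ETS match at position 235. Neither motif is in the windows of Ndufv3 and Cox7a1. Cox6a2, Cox6c and Ndufb9 are named without a sequence.

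Promoter windows were found for 68 of the measured genes, 73 windows in all. The NRF1 motif was in 24 of them (32.9%), against 6.31% of all 32851 windows of the same length in the table. The ETS motif was in 19 (26%), against 8.86% of all windows. An E-box, CACGTG on both strands, was in 7 (9.59%), against 7.15%, and an AP-1 site, TGANTCA on both strands, was in 7 (9.59%), against 7.81%. Only 2 NRF1 matches in all windows overlapped an E-box. The windows of the respiratory chain genes had a median GC content of 57.7%, against 52.7% over all windows, and what part GC content has in these shares was not tested. Among the 11 windows of genes that passed a test in any comparison below, 5 held the NRF1 motif and 1 held the ETS motif.

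Signals of these genes were high above background. Their median log2 level was 11.69, against 8.352 over all genes tested, and 73 of 79 were detected on all 8 arrays. The least often detected of the measured genes were Cox7a1, on 3 arrays, and Cox7b, on 4, while the 10 genes left out were detected on none. Those 10 were Ndufab1 and Ndufs1 of complex I, Uqcrfs1 and Uqcrq of complex III, Atp5k of complex V, and Cox4i2, Cox6b2, Cox7b2, Cox8b and Cox8c of complex IV. Of the 5 complex IV genes among them, all encode tissue-restricted isoforms of subunits. Ndufs1 and Uqcrfs1, by contrast, encode iron-sulfur subunits that every working complex I and complex III contains, so a probe without signal does not show that the transcript is missing. A level is the signal of 1 probe, so the levels of single genes are not set against each other. As background to all comparisons, 9755 to 10021 of 25697 probes were detected per array and arrays of a group correlated with r of 0.990 to 0.995 over the genes tested. Of 8 melanocyte marker genes with a named probe, 7 were detected on no array, Mitf, Tyr, Tyrp1, Dct, Pmel and Mlana among them. Gpnmb was detected on all 8 arrays, with no call in the drug comparisons, and fell by 0.79 in co-culture against mono-culture under PLX4720 (limma adjusted p = 0.0346). Its part in the values of that comparison was not tested. Of 12 fibroblast markers, 5 were detected on no array (Dcn, Lum, Thy1, Fap and Postn).

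The summed level of the 7 measured fibroblast markers was higher with PLX4720 in each culture, mono-culture included. On the linear scale it was 8294 to 8791 in co-culture and 6552 to 13980 in mono-culture under PLX4720, against 589.9 to 618.7 in co-culture and 1042 to 1271 in mono-culture under DMSO. The sums under PLX4720 are mostly Acta2, at 12.8 and 12.9 in co-culture and 13.67 and 12.4 in mono-culture on the log2 scale. Every other measured marker was at 8.44 or lower there. Of the 7, 6 were called as higher with PLX4720 in each culture. Acta2 rose by 6.13 in co-culture and 3.93 in mono-culture, and the other called markers had fitted log2 changes of 1.03 to 1.94 and 0.87 to 1.37. Col1a1, at the low end of both ranges, was detected on all 4 PLX4720 arrays and on no DMSO array. It thus passed the detection filter only through drug groups. Col1a2 was detected on no DMSO array in co-culture and on 1 in mono-culture. Pdgfra did not pass. In co-culture against mono-culture, none passed under PLX4720 and 2 fell under DMSO (Acta2 and Col3a1). Their part in the values below was not tested.

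The mean level of the respiratory chain varied little between arrays. Over the 79 genes, the mean log2 level was 10.83 and 10.79 on the arrays of co-culture with PLX4720 and 10.66 and 10.71 in co-culture with DMSO. In mono-culture it was 10.67 and 10.76 with PLX4720 and 10.76 and 10.70 with DMSO. The 8 arrays thus spanned 0.165 on the log2 scale, those of co-culture with PLX4720 lay highest, and PLX4720 and DMSO overlapped in mono-culture. Over all genes tested, the mean level of the arrays spanned 0.041.

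**Figure D1:**
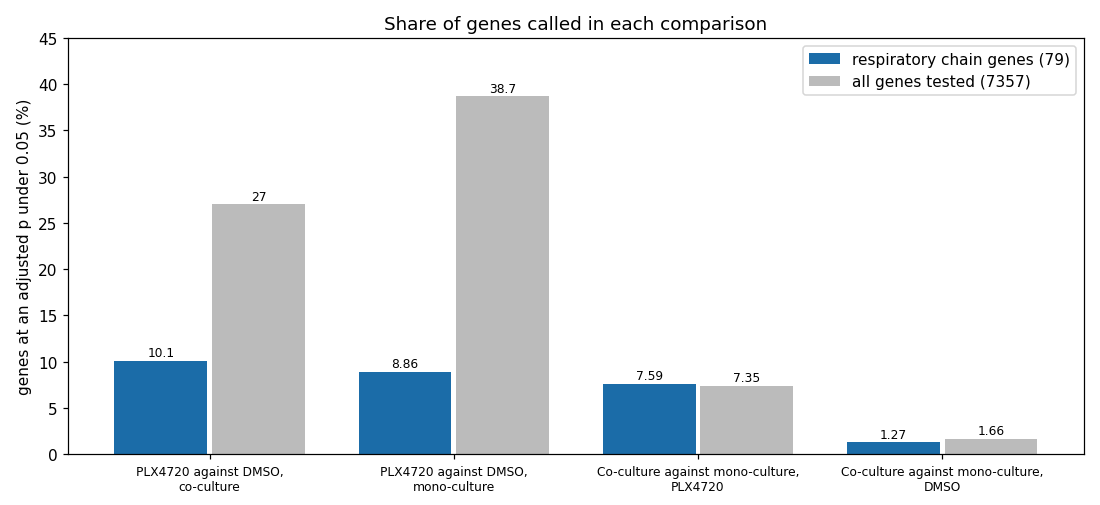
Bars give the share of genes, in percent, at an adjusted p under 0.05 (limma) in each of 4 comparisons, for the 79 respiratory chain genes and for all 7357 genes tested. With PLX4720 the respiratory chain stands at 10.1% in co-culture and 8.86% in mono-culture, against 27% and 38.7% of all genes.

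With PLX4720 in co-culture, 8 respiratory chain genes rose and none fell. They were 8 of 79 (10.1%), against a background of 27% of all genes tested, of which 14.3% rose and 12.7% fell (limma over all 8 arrays, p adjusted over all genes after Benjamini and Hochberg, threshold 0.05, as in all counts below). The median log2 fold change of the 79 genes was 0.06, beside 0.005 over all genes, with values from -0.34 for Ndufaf4 to 0.95 for Cox7a1. For 63 genes (79.7%) the 95% interval of the change lay within 1.5-fold either way, against 44.9% of all genes. Of the 8 called genes, 4 have a mean log2 level of 10 or more (4 of 56, 7.14%, beside 22.4% of all genes at that level). All 8 calls were lost without the first co-culture array with DMSO, when 1 other gene passed. The count was 3 without the second co-culture array with DMSO or the second with PLX4720.

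Complex I held 5 of the 8. Ndufa13, also known as GRIM-19, was at 13.59 and 13.71 with PLX4720 and 13.03 and 13.24 with DMSO in co-culture, and rose by 0.52 (SE 0.13, limma adjusted p = 0.0155). Ndufv3, an accessory subunit of the NADH-binding module, was at 11.68 and 11.56 with PLX4720 and 11.13 and 11.24 with DMSO, and rose by 0.43. Ndufb10, an accessory subunit of the membrane arm, was at 8.27 and 8.11 with PLX4720 and 7.65 and 7.71 with DMSO (log2 change 0.51, limma adjusted p = 0.0173). The groups did not overlap in any of these 3 genes, nor in 65.6% of all genes. Ndufb9, an LYR protein of the membrane arm, was at 7.40 and 6.90 with PLX4720 and 6.58 and 6.56 with DMSO (log2 change 0.58, limma adjusted p = 0.0453). Ndufb2, another accessory subunit of that arm, was at 6.43 and 6.63 with PLX4720 and 6.04 and 6.14 with DMSO, and rose by 0.44.

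In complexes IV and V, Cox6c, Cox7a1 and Atp5c1 rose in co-culture. Cox6c, a small nucleus-encoded subunit, was at 10.96 and 11.06 with PLX4720 and 10.08 and 10.43 with DMSO, which is 1.68-fold higher (log2 change 0.75, SE 0.18, limma adjusted p = 0.012). Cox7a1, the heart and muscle isoform of a complex IV subunit, was detected on both PLX4720 arrays, at 5.640 and 5.995, and on neither DMSO array, at 4.739 and 5.004. Its level was at least 1.19-fold higher with the drug (limma adjusted p = 0.00854), a bound that sets the mean of the drug arrays against the lowest detected signal of the vehicle arrays. All 3 arrays of the series on which Cox7a1 was detected carried PLX4720, so it passed the detection filter only through drug groups. Atp5c1, the gamma subunit that turns in the centre of the ATP synthase, was at 13.21 and 13.28 with PLX4720 and 12.75 and 12.67 with DMSO (log2 change 0.53, limma adjusted p = 0.0188). Atp5a1, the alpha subunit, had a log2 change of 0.54 that did not pass (95% interval 0.13 to 0.96, limma adjusted p = 0.056), and passed on the authors' log2 values (0.40, limma adjusted p = 0.0254).

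With PLX4720 in mono-culture, 5 respiratory chain genes rose and 2 fell. They were 7 of 79 (8.86%), whereas the background was 38.7% of all genes tested, of which 20.2% rose and 18.6% fell. Among genes with a mean log2 level of 10 or more, 5 of 56 respiratory chain genes (8.93%) were called, against 35.5% of all genes. The median log2 fold change of the 79 genes was -0.01, beside 0.013 over all genes, and the values lay between -1.17 for Ndufaf4 and 0.61 for Cox7a1. For 54 genes (68.4%) the 95% interval lay within 1.5-fold either way, which held for 37.5% of all genes. Without background correction and on the authors' log2 values, 14 of the 79 passed, beside 40.6% of all genes, and 11 passed with an offset of 50 or with detection required on all 8 arrays. With arrays scaled on their medians instead of quantile normalised, the split of the called genes turned to 1 higher and 4 lower. The count was 3 without the first mono-culture or the first co-culture array with DMSO, and 4 without the first mono-culture array with PLX4720 or the second co-culture array with DMSO. Of the 7 calls, that of Ndufaf4 alone held without any one array.

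Ndufaf4, an assembly factor of complex I, had the largest change of the 79 genes with the drug. In mono-culture its log2 level was 9.54 and 9.18 with PLX4720 and 10.71 and 10.36 with DMSO. Both PLX4720 arrays lay below both DMSO arrays and below all 4 co-culture arrays. The gene fell by 1.17 on the log2 scale, 2.25-fold (SE 0.18, limma adjusted p = 0.000951). In co-culture it was at 10.29 and 9.96 with PLX4720 and at 10.45 and 10.48 with DMSO, again lower on both drug arrays, but the log2 difference of -0.34 did not pass (95% interval -0.74 to 0.06, limma adjusted p = 0.191). Ndufaf3, another assembly factor of complex I, had log2 changes of 0.89 in co-culture and 0.58 in mono-culture, with an SE of 0.32 that left both short of the threshold. In co-culture Ndufaf3 passed as higher on the authors' log2 values (0.41, limma adjusted p = 0.0312), with an offset of 50 (0.0239) and with median scaling (0.0344).

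Among structural subunits of complex I, 3 rose and 1 fell in mono-culture. Ndufv3 was at 11.71 and 11.65 with PLX4720 and 11.22 and 11.19 with DMSO (log2 change 0.48, SE 0.12, limma adjusted p = 0.0126). Ndufa13 was at 13.60 and 13.55 with PLX4720 and 13.20 and 13.17 with DMSO, and rose by 0.39. Both genes rose in each culture. Cox7a1 was called as higher in each, but was detected on no DMSO array of either culture. Ndufa6, an accessory subunit of the LYR protein family, was at 12.19 on both PLX4720 arrays and at 11.86 and 11.75 with DMSO, a rise of 0.39 on the log2 scale (limma adjusted p = 0.026). Ndufb2, which rose in co-culture, fell here, at 5.90 and 5.76 with PLX4720 and 6.33 and 6.25 with DMSO (log2 change -0.46, limma adjusted p = 0.0202). Its call with PLX4720 was lost in each culture under 8 of the 20 alternatives, among them the authors' log2 values, with log2 changes of 0.19 in co-culture (limma adjusted p = 0.127) and -0.17 in mono-culture (0.131). The mono-culture changes of these structural subunits are of 1.31- to 1.39-fold, and the calls of Ndufa6 and Ndufa13 were lost under median scaling and when any of 6 single arrays was left out. On the authors' log2 values, Ndufa12 also passed as lower (-0.40, limma adjusted p = 0.0141) and Ndufa3 as higher (0.24, limma adjusted p = 0.0482). Neither passed in this fit (-0.41 and 0.25, limma adjusted p = 0.0517 and 0.129).

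Outside complex I, Sdhaf4 rose in mono-culture and Cox7a1 was called as higher. Sdhaf4, an assembly factor of complex II, was at 10.31 and 10.60 with PLX4720 and 10.19 and 9.80 with DMSO, with a log2 change of 0.46 that passed narrowly (limma adjusted p = 0.0484) and under 8 of the 20 alternatives. Cox7a1 was detected on 1 of 2 PLX4720 arrays and on no DMSO array in mono-culture. Its values of 5.37 and 5.69 with PLX4720 and 4.68 and 5.17 with DMSO gave a limma adjusted p of 0.0412, and no fold is given because the bound against the lowest detected signal was under 1. Without the filter on dim probes this call was lost (limma adjusted p = 0.0962). No gene of complexes II, III and V passed in mono-culture in this fit. On the authors' log2 values, which carry no background correction, Sdhc (limma adjusted p = 0.0297) and Atp5d (0.0179) passed as higher and Uqcrb (0.0262) and Atp5a1 (0.0471) as lower.

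**Figure D2:**
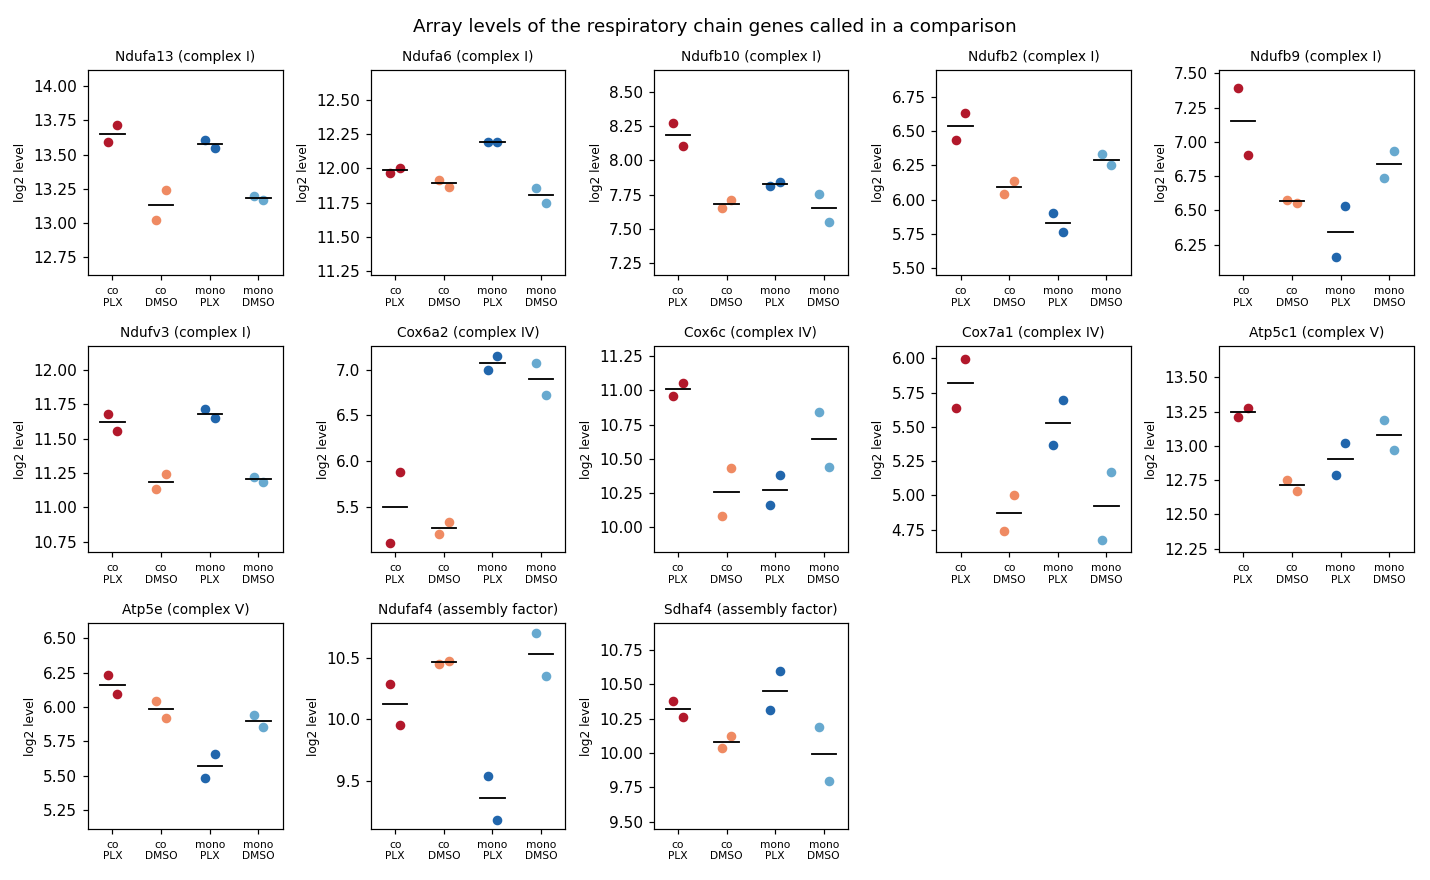
Each panel shows the log2 level of 1 of the 13 respiratory chain genes called in a comparison, with a point per array, a line at the mean of the 2 arrays of a group, and the groups on the horizontal axis, on a vertical scale that differs between panels. Cox6a2 is low on all 4 co-culture arrays (5.10 to 5.88), of which 1 detected it. Ndufaf4 is lowest in mono-culture with PLX4720 (9.54 and 9.18).

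Under PLX4720, co-cultured cells were set against mono-cultured cells. Of 79 genes, 5 rose and 1 fell (7.59%), close to the background of 7.35% of all genes tested (3.89% rose and 3.47% fell), so the share is no result about the group. This comparison shares its arrays with both drug comparisons above. The median log2 fold change was 0.07 (0.008 over all genes), and 60 of the 79 genes (75.9%) had a 95% interval within 1.5-fold, against 54.4% of all genes. Ndufb9 had the largest rise, with 7.40 and 6.90 in co-culture and 6.16 and 6.53 in mono-culture, a log2 change of 0.80 (limma adjusted p = 0.0374). Ndufaf4 was higher in co-culture by 0.76 (10.29 and 9.96 against 9.54 and 9.18, limma adjusted p = 0.0371). Cox6c was higher by 0.73, with 10.96 and 11.06 in co-culture and 10.17 and 10.38 in mono-culture.

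Ndufb2 and Atp5e were the other genes that rose. Ndufb2 was at 6.43 and 6.63 in co-culture and 5.90 and 5.76 in mono-culture (log2 fold change 0.70, limma adjusted p = 0.0195). Atp5e, the epsilon subunit at the foot of the central stalk of the ATP synthase, was at 6.24 and 6.09 in co-culture and 5.48 and 5.66 in mono-culture (0.59, limma adjusted p = 0.031), where it was detected on 1 of 2 arrays. Its change was 0.21 on the authors' log2 values, and the call was lost under 12 of 19 alternatives. Groups did not overlap for any of the 6 called genes, nor for 54.3% of all genes. Cox7b, another small subunit of complex IV, was detected on both co-culture arrays and on neither mono-culture array and was at least 1.33-fold higher, without passing (limma adjusted p = 0.0764). No gene was called without the first co-culture array with PLX4720, 1 without the second mono-culture array with PLX4720 and 3 without the first. Leaving out the first or the second co-culture array with DMSO, which is in neither group compared, left 2. Normalisation and the detection filter were repeated without the array.

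Cox6a2, the heart and muscle isoform of a subunit of complex IV, was the one respiratory chain gene called as lower in co-culture under both treatments. It was detected on all 4 mono-culture arrays and on 1 co-culture array, so it passed the detection filter only through mono-culture. Under PLX4720 it was at 5.10 and 5.88 in co-culture, where it was detected on 1 array, and 6.998 and 7.150 in mono-culture (limma adjusted p = 0.00854, and 0.0508 without the first co-culture array with PLX4720). The log2 change was -1.58 (SE 0.23), between -1.97 and -0.65 over the alternatives, with the smallest change where no background was corrected. Under DMSO it was at 5.20 and 5.33 in co-culture, where it was detected on neither array, and at 7.07 and 6.72 in mono-culture, at least 2.51-fold lower (limma adjusted p = 0.00775, fitted log2 change -1.63, and -0.63 without background correction). All 4 co-culture arrays lay below all 4 mono-culture arrays, and PLX4720 and DMSO overlapped in both cultures. The log2 change of the gene with PLX4720 was 0.23 in co-culture and 0.18 in mono-culture, and did not pass. The co-culture value rests on single arrays, at 0.61 without the first PLX4720 array (limma adjusted p = 0.0459) and -0.16 without the second. The call under DMSO was lost without the first mono-culture array with DMSO (limma adjusted p = 0.0774) or without the first or the second co-culture array with DMSO (0.0938 and 0.0678).

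Under DMSO, Cox6a2 was the only respiratory chain gene called between co-culture and mono-culture (1.27%), beside a background of 1.66% of all genes tested (0.625% rose and 1.03% fell). The other genes had log2 differences from -0.38 for Cox6c to 0.26 for Atp5d, and 68 of the 79 (86.1%) had a 95% interval within 1.5-fold, against 67% of all genes. In Ndufb2, Ndufb9, Cox6c, Atp5a1 and Atp5c1 the co-culture arrays did not overlap the mono-culture arrays and lay lower. These genes, named after their values were seen, had log2 differences of -0.38 to -0.20, and none of the 5 passed (lowest limma adjusted p = 0.259). Groups did not overlap for 26 of the 79 genes, beside 49.1% of all genes.

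**Figure D3:**
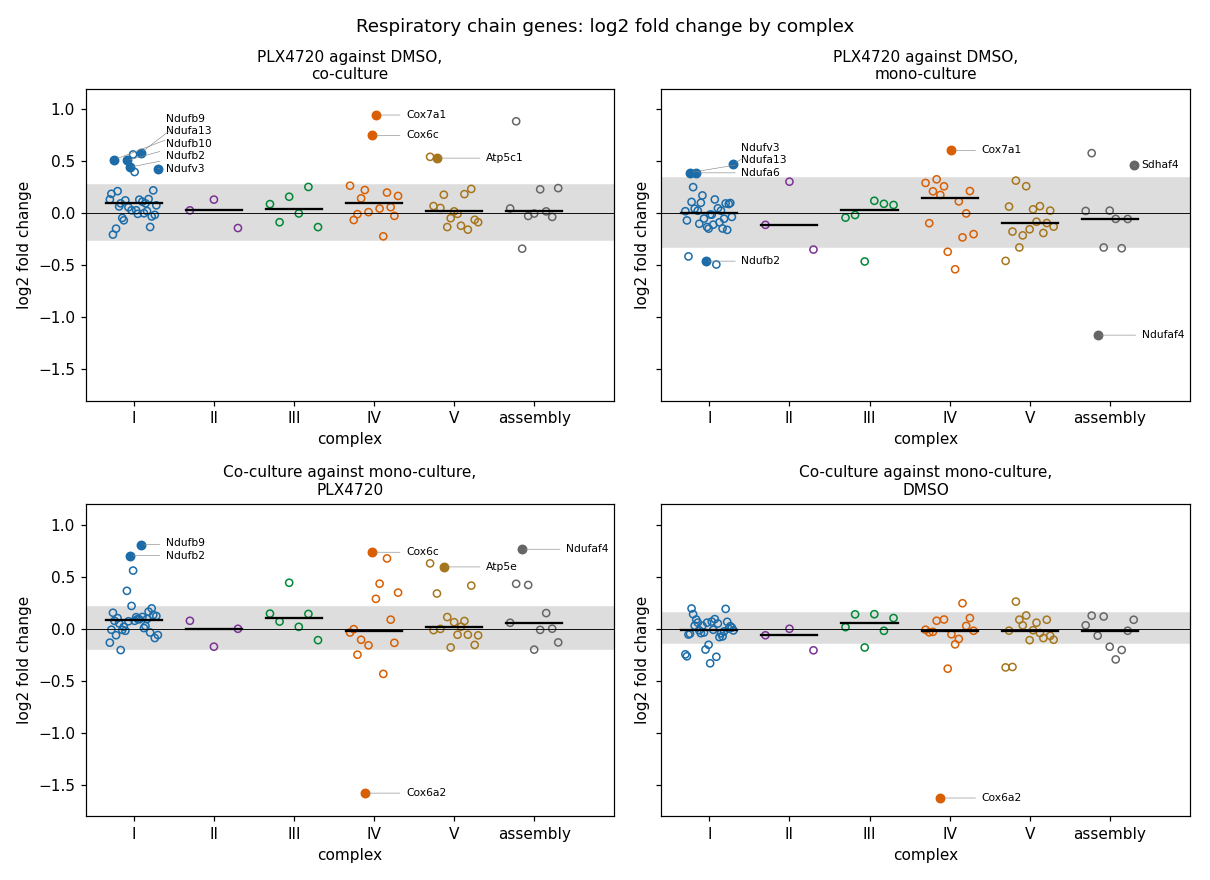
Each panel is 1 comparison, with complexes and assembly factors on the horizontal axis, the log2 fold change of each gene on the vertical axis, filled points for genes at an adjusted p under 0.05, black lines at class medians and a grey band for the interquartile range of all genes tested. Cox6a2 (-1.58 under PLX4720 and -1.63 under DMSO in co-culture against mono-culture, but -0.65 and -0.63 without background correction) and Ndufaf4 (-1.17 with PLX4720 in mono-culture) lie far below 0, and the medians of the 5 complexes lie between -0.11 and 0.15.

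The PLX4720 effect was then compared between the cultures by its difference, the effect in co-culture minus that in mono-culture. The 2 effects do not share arrays, although all arrays share 1 estimate of the spread. None of the 79 genes passed (limma), and the background was 0.122% of all genes tested (0.0408% with the higher and 0.0816% with the lower effect in co-culture). At an unadjusted p under 0.05 stood 9 of the 79 genes (11.4%), all with the higher effect in co-culture, beside 16.5% of all genes (8.63% with the higher and 7.91% with the lower effect). Cox6c passed without background correction (limma adjusted p = 0.026), with normexp at an offset of 50 (0.0304) and with median scaling (0.0254), as did Atp5c1 without background correction (0.0413) and Atp5a1 with median scaling (0.0444). The 9 genes at that unadjusted p were Ndufb2, Ndufb9, Ndufb4, Uqcrb, Cox6c, Atp5a1, Atp5c1, Atp5e and Ndufaf4. They came from complexes I, III, IV and V and the assembly factors, with differences from 0.51 for Atp5e to 1.12 for Cox6c. For Cox6c the difference was 1.12 on the log2 scale (95% interval 0.56 to 1.68, limma adjusted p = 0.0854), for Ndufb2 it was 0.90 (0.49 to 1.32, limma adjusted p = 0.0745) and for Atp5a1 1.00 (0.41 to 1.59, limma adjusted p = 0.118).

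Uqcrb and Atp5a1, like Ndufb4, were called in no comparison of this fit. Uqcrb, a small subunit of complex III, was at 10.50 and 10.09 with PLX4720 and 9.98 and 10.29 with DMSO in co-culture, and at 9.71 and 10.00 with PLX4720 and 10.38 and 10.26 with DMSO in mono-culture. The co-culture groups overlapped and the mono-culture groups did not. Atp5a1 was at 8.65 and 8.54 with PLX4720 and 7.91 and 8.19 with DMSO in co-culture, and at 7.75 and 8.18 with PLX4720 and 8.61 and 8.24 with DMSO in mono-culture. Here the drug arrays lay above the vehicle arrays in co-culture and below them in mono-culture.

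In all, 54 of the 79 genes had a positive difference, with a median of 0.08, beside -0.001 over all genes tested. At a split of the genes by signal that was chosen with the values known, 21 of 23 genes with a mean log2 level under 10 had a positive difference (median 0.31), against 33 of 56 at a level of 10 or more (median 0.03). Over all genes under that level, 2796 of 5626 had a positive difference. Median scaling raised the median of the 79 genes to 0.26 and that of all genes to 0.16.

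**Figure D4:**
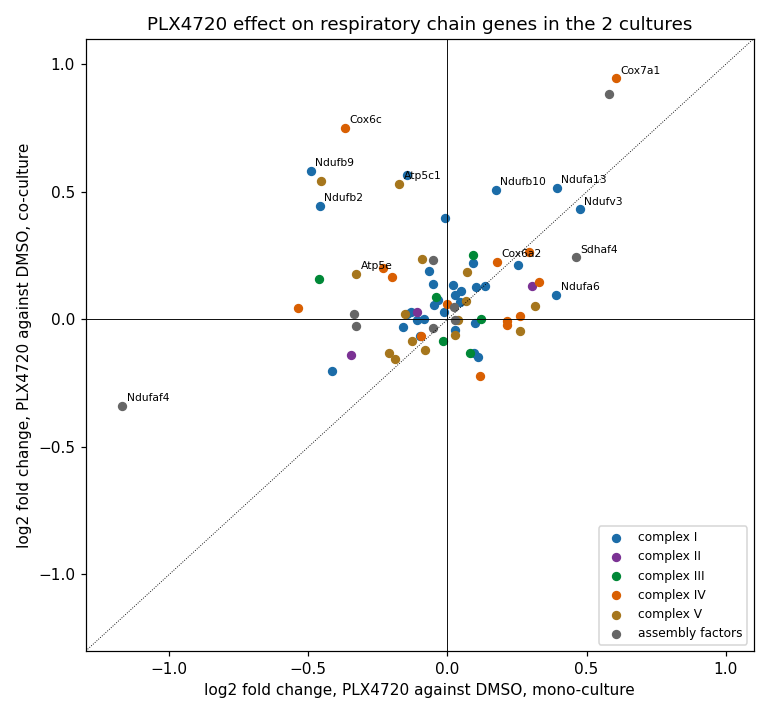
Each point is 1 respiratory chain gene, with the log2 fold change of PLX4720 against DMSO in mono-culture on the horizontal axis and in co-culture on the vertical axis, coloured by complex, and a dotted line where both are equal. Cox6c, Ndufb9, Ndufb2 and Atp5c1 lie at upper left, below 0 in mono-culture and above 0 in co-culture, and Ndufaf4 lies at lower left.

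Complexes were compared with each other by counts and medians, as genes on the same arrays are not replicates and no p is attached. Complex I had 5 of 32 genes called in co-culture and 4 of 32 in mono-culture with PLX4720 (15.6% and 12.5%). In the same order complex IV had 2 and 1 of 14 (14.3% and 7.14%), and complex V had 1 and 0 of 15. Each of the 2 complex IV counts includes Cox7a1, which passed the detection filter only through drug groups. No gene of complexes II and III was called in any comparison of this fit, although Sdhc and Uqcrb passed in mono-culture on the authors' log2 values, and Uqcrb also with an offset of 50, median scaling and detection on all 8 arrays. Every one of these shares lies below the 27% and 38.7% of all genes, though for the 3 and 6 genes of complexes II and III a count of 0 says little. Assembly factors had none of 9 called in co-culture in this fit, although Ndufaf3 passed there as higher on the authors' log2 values (limma adjusted p = 0.0312). In mono-culture 2 of them were called (Ndufaf4 lower and Sdhaf4 higher).

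Median log2 fold changes with PLX4720 in co-culture were 0.10 for complex I, 0.03 for complex II, 0.05 for complex III, 0.10 for complex IV and 0.02 for complex V, and 0.02 for the assembly factors. In mono-culture they were 0.01, -0.11, 0.03, 0.15 and -0.09 for complexes I to V, and -0.05 for the assembly factors. The mean level of complex IV varied most between arrays among the 5 complexes, by 0.326 on the log2 scale, and that of complex II least, by 0.187. Complex IV includes Cox6a2, which ranged from 5.10 to 7.15 over the arrays, and its part in the 0.326 was not tested. Within complex IV in mono-culture, Cox4i1, Cox5b, Cox6a1, Cox6b1 and Cox8a had log2 differences of 0.21 to 0.33 with PLX4720, with both drug arrays above both vehicle arrays in each, and none passed in this fit (lowest limma adjusted p = 0.0584, for Cox6a1). Cox7a2, Cox6c and Ndufa4 went the other way, with both drug arrays below both vehicle arrays. Their log2 differences were -0.54, -0.37 and -0.20, and none of them passed either. Of the 14 genes of complex IV, 8 had a positive log2 difference there. On the authors' log2 values Cox6a1, Cox4i1 and Cox6b1 passed (limma adjusted p = 0.0131, 0.0457 and 0.0445), and Cox6a1 also with an offset of 50 (0.0372) and with detection on all 8 arrays (0.0481). Groups did not overlap for 71.5% of all genes in that comparison.

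Complex II, the link to the citric acid cycle, is given in full. Sdhb, the iron-sulfur subunit, was at 10.42 and 10.44 in co-culture with PLX4720 and 10.21 and 10.59 with DMSO, and at 10.26 and 10.45 in mono-culture with PLX4720 and 10.56 and 10.37 with DMSO. Sdhc, a membrane anchor, was at 11.61 and 11.82 in co-culture with PLX4720 and 11.55 and 11.62 with DMSO, and at 11.97 and 11.81 in mono-culture with PLX4720 and 11.58 and 11.59 with DMSO. The other anchor, Sdhd, was at 6.67 and 6.87 in co-culture with PLX4720 and 6.86 and 6.97 with DMSO, and at 6.66 and 6.89 in mono-culture with PLX4720 and 7.03 and 7.21 with DMSO. On the probes used, PLX4720 and DMSO overlapped in co-culture for all 3. In mono-culture the anchors lay apart by drug in opposite directions (0.30 for Sdhc and -0.35 for Sdhd on the log2 scale, limma adjusted p = 0.0911 and 0.0781), and Sdhb overlapped. Another Sdhb probe, detected on all 8 arrays, did not overlap by drug in either culture. It was at 10.37 and 10.26 with PLX4720 and 10.08 and 10.19 with DMSO in co-culture (log2 change 0.18). In mono-culture it was at 10.08 and 10.22 with PLX4720 and 10.44 and 10.32 with DMSO (-0.23). The catalytic subunit Sdha was not analysed here.

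Isoforms of complex IV subunits are set side by side. Cox6a1, the ubiquitous partner of Cox6a2, was at 12.74 and 12.66 in co-culture and 12.76 and 12.85 in mono-culture under PLX4720, and at 12.55 on both co-culture arrays and 12.40 and 12.55 in mono-culture under DMSO. Its log2 differences between co-culture and mono-culture were -0.11 under PLX4720 and 0.08 under DMSO. Cox7a2, the broadly expressed partner of Cox7a1, had log2 fold changes with PLX4720 of 0.05 in co-culture and -0.54 in mono-culture (limma adjusted p = 0.0628). Cox7a2l, which takes part in joining complexes III and IV, was at 11.09 and 11.25 in co-culture and 11.58 and 11.63 in mono-culture under PLX4720 (-0.43, limma adjusted p = 0.0677). On the authors' log2 values Cox7a2l passed as lower in that comparison (limma adjusted p = 0.0151). Ndufa4, Atp5mpl and Atp5a1 passed there as higher (0.0376, 0.0206 and 0.0295). No difference between members of a pair was tested. Cox4i1 was measured without Cox4i2, Cox6b1 without Cox6b2 and Cox8a without Cox8b. Ndufa4 had log2 fold changes with PLX4720 of 0.17 in co-culture and -0.20 in mono-culture, and did not pass.

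In the ATP synthase, Atp5b, the catalytic beta subunit, was at 14.62 and 14.74 with PLX4720 and 14.62 and 14.60 with DMSO in co-culture, and at 14.71 and 14.67 with PLX4720 and 14.58 and 14.67 with DMSO in mono-culture. The log2 fold changes with PLX4720 were 0.07 in each culture, with 95% intervals of -0.20 to 0.34 in co-culture and -0.20 to 0.33 in mono-culture. Atp5g1, Atp5g2 and Atp5g3 encode the same c subunit of the rotor ring, and their log2 fold changes with PLX4720 were -0.13, -0.05 and 0.02 in co-culture and -0.21, 0.26 and -0.15 in mono-culture. None of the 3 passed in any comparison. Atp5d, the delta subunit, differed by 0.32 in mono-culture with PLX4720 (limma adjusted p = 0.068, and 0.0179 on the authors' log2 values).

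Core subunits of complexes I and III were among the genes that did not pass. Ndufv1, which binds NADH, had log2 fold changes with PLX4720 of -0.01 in co-culture (95% interval -0.27 to 0.25) and 0.10 in mono-culture (-0.16 to 0.36). Ndufs3 and Ndufs7, core subunits of the arm that carries electrons to ubiquinone, had 0.10 and -0.03 in co-culture and 0.03 and -0.16 in mono-culture. The core proteins of complex III, Uqcrc1 and Uqcrc2, had -0.0003 and 0.25 in co-culture and 0.12 and 0.09 in mono-culture, and did not pass. Over the 79 genes, the 95% interval of a log2 fold change had a median half-width of 0.292.

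Where a gene had several kept probes, they served as a check within the gene. For Ndufv3, a second probe detected on all 8 arrays gave log2 fold changes with PLX4720 of 0.33 in co-culture and 0.36 in mono-culture, beside 0.43 and 0.48 for the probe used. Another, at 5.50 to 6.26 on the 8 arrays, gave -0.33 and 0.14, and the calls of Ndufv3 were lost when all 3 were averaged (limma adjusted p = 0.4 and 0.0526). The 2 probes of Cox6a1 gave 0.33 and 0.31 in mono-culture. For Ndufs4, which had 4 kept probes, the probe used gave 0.02 in co-culture and -0.15 in mono-culture, and the others gave 0.16 to 0.30 in co-culture and -0.40 to -0.28 in mono-culture.

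Genes that build or supply the chain were examined as lists beside the rule, and their counts stand against the same 27% of all genes called in co-culture and 38.7% in mono-culture. Of 14 measured genes of pyruvate dehydrogenase and the citric acid cycle, Ogdh alone (7.14%) passed with PLX4720 in co-culture and rose by 0.52. In mono-culture 4 of the 14 fell (28.6%, where 18.6% of all genes fell) and none rose. These were Dld, Suclg2, Idh3a and Mdh2, with log2 changes of -0.65, -0.60, -0.49 and -0.39, and Dld was detected on 1 of its 2 PLX4720 arrays there. Of 13 measured complex IV assembly genes, 3 rose and 1 fell in co-culture (30.8%), and 2 rose and none fell in mono-culture (15.4%). Cox19 rose by 0.41 in co-culture and 0.70 in mono-culture, Cox20 by 0.73 and 0.50, and Lrpprc, which stabilises mitochondrial mRNA, fell by 0.54 in co-culture.

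Of 12 measured complex I assembly genes, which include 5 Ndufaf genes of the rule, Tmem126b rose in both cultures (0.58 in co-culture and 0.46 in mono-culture) and Ndufaf4 and Timmdc1 fell in mono-culture (Timmdc1 by 0.86). Of 9 measured assembly genes of complexes II, III and V, Sdhaf4 rose in mono-culture and Atpaf2 fell in both cultures, with log2 changes of -0.55 in co-culture and -0.44 in mono-culture. Of 6 measured carriers and inhibitors of ATP exchange, Atpif1, the inhibitor of the ATP synthase, rose by 0.41 in mono-culture, and of Cyc1 and the cytochrome c gene Cycs, Cycs passed as lower in co-culture (limma adjusted p = 0.0353). Cycs was detected there on neither PLX4720 array and on both DMSO arrays, and on 3 of 8 arrays in all, each with DMSO. It thus passed the detection filter only through DMSO groups, and no fold is given. Between co-culture and mono-culture, Ndufaf4 under PLX4720 was the only gene called in these lists, and under DMSO none was.

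Among regulators of mitochondrial gene expression, 8 of 12 were measured. With PLX4720, 1 of the 8 fell in co-culture (12.5%), where 27% of all genes were called and 12.7% fell. In mono-culture 3 fell (37.5%), where 38.7% of all genes were called and 18.6% fell. None rose in either culture. Tfam, which packages and transcribes mitochondrial DNA, was at 8.60 and 8.48 with PLX4720 and 8.90 and 9.16 with DMSO in co-culture, and at 8.18 and 8.20 with PLX4720 and 8.94 and 8.89 with DMSO in mono-culture. It fell by 0.49 in co-culture (limma adjusted p = 0.0228) and fell by 0.73 in mono-culture (limma adjusted p = 0.00249), with no overlap in either. Gabpb1, a subunit of GABP, and Tfb2m, a mitochondrial transcription factor, fell in mono-culture with log2 changes of -0.58 and -0.42. The log2 difference of Nrf1 was -0.43 in mono-culture and did not pass. Ppargc1a, the gene of PGC1alpha, was detected on no array and Ppargc1b on 1. Genes encoded in mitochondrial DNA had no named probe.

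The 5 other genes whose levels followed the mean of the 79 genes most closely over the 8 arrays were Snf8, Prepl, Spc24, H3c4 and Zfp365, with Pearson correlations of 0.962, 0.943, 0.943, 0.922 and 0.919. These describe likeness over 8 arrays that share groups and normalisation, and the mean they follow spans only 0.165 on the log2 scale.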

How the data were processed

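The authors deposited mean bead intensity values of 8 arrays, neither background-corrected nor normalized, with a detection p-value per probe and array per the file headers, and a table of log2 values. The submitters' processing notes name lumi with no version. The deposited log2 values equal quantile-normalized intensities without background subtraction (largest difference 5e-09). Arrays were assigned to 4 groups from their titles, and 0 value columns were unused.

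Intensities were corrected, quantile normalized and put on the log2 scale by neqc of limma 3.58.1 (R 4.3.3, statmod 1.5.0, offset 16, negative controls inferred from the detection p). The platform annotation gave 1 gene symbol to 23978 of 25697 probes and none to 1719, and 23962 matched the reference annotation. Probes with a detection p under 0.01 on 2 arrays or more were kept (10660, of which 10039 named). A gene with several (1953 genes) was represented by the one of highest mean, giving 7357 genes. The 4 group means were fitted over all 8 arrays with lmFit and eBayes (4 residual degrees of freedom, prior 5.49), with two-sided p adjusted over all genes at 0.05. The script was tested on simulated data. For a gene detected in 1 group only, a bound was taken against the lowest detected signal, averaged per array. The number of arrays limits the precision.

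Values per array were given for genes past the threshold and, within each complex, for genes among the 2 smallest p in a comparison, complex II and isoform pairs, of which the text gives the main part. Genes of other lists were named by smallest p. The members and lists were chosen with earlier results of these data known. Alternatives were other background corrections, median scaling, the authors' log2 values, symbols as printed by the array annotation, other detection filters, the mean of probes, a replicate block, array weights, the 4 arrays compared, a Student statistic per gene, each array left out and 2 choices of members. Promoter windows came from RefSeq on GRCm38.p6.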

Additional observations from a re-analysis of the deposited data

How the results depend on the processing

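Without background correction, and on the authors' log2 values, 14 respiratory chain genes passed with PLX4720 in mono-culture in place of 7, and 2 in the difference of effects in place of 0. With normexp at an offset of 50 these counts were 11 and 1. Detection on all 8 arrays gave 11 in mono-culture with PLX4720 and 0 between cultures under DMSO, where Cox6a2 is then not tested. Without a filter on dim probes, or with array weights, 2 genes in place of 6 passed between the cultures under PLX4720. With only the 4 arrays compared, 4 passed with PLX4720 in mono-culture and 2 between the cultures under PLX4720. Median scaling gave 2 in the difference of effects and moved the medians of the 79 genes to 0.155 and -0.102 with PLX4720 in co-culture and mono-culture, 0.188 and -0.066 between the cultures under PLX4720 and DMSO, and 0.26 in the difference, while the medians over all genes went to 0.092, -0.055, 0.101, -0.048 and 0.156. The causes were not tested.

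A Student statistic per gene over the 4 arrays compared, without pooling over genes, left 0 in each of the 4 comparisons, with 9 and 5 genes at an unadjusted p under 0.05 with PLX4720 in co-culture and mono-culture, and 10 and 3 between the cultures under PLX4720 and DMSO. When each array was left out in turn, the counts ranged from 1 to 10 with PLX4720 in co-culture, 3 to 9 in mono-culture, 0 to 6 between the cultures under PLX4720 and 0 to 1 under DMSO, and the median between the cultures under PLX4720 from 0.001 to 0.114. Of choices of members made after seeing the data, those at or above the median level of all genes held 4 of the 8 calls with PLX4720 in co-culture, 2 of the 6 between the cultures under PLX4720 and 0 under DMSO; leaving out assembly factors and the pseudogene kept all counts within 1.5-fold. The PLX4720 change of Cox6a2 in co-culture (0.23, not called) was -0.16 without the second co-culture array with PLX4720 and 0.61, past the threshold, without the first.

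Of 22 gene and comparison pairs called, that of Ndufaf4 with PLX4720 in mono-culture alone held under every alternative other than the Student statistic (log2 fold change -1.35 to -0.99, highest adjusted p = 0.00954 from limma), and 27 further pairs passed under some alternative. The labels do not say whether arrays of the same replicate number belong together. Titles of the arrays numbered replicate 1 carry the letter A and those of the others the letter B. Deviations of replicate 1 correlated between groups with r of -0.0836 to 0.0899 over all genes, and no pair was over 0.1. Over the respiratory chain genes r was -0.444 between co-culture and mono-culture with DMSO. It was -0.0644 to 0.101 for the other pairs of groups. With the replicate block, 8 genes passed with PLX4720 in co-culture and 6 in place of 7 in mono-culture, and 6, 1 and 0 in the others, as without it (Sdhaf4 lost its call in mono-culture, limma adjusted p = 0.0598, and Ndufb9 in co-culture, where another gene passed), and calls over all genes in the difference of effects went to 52, against 9 without it. Depth, here signal over background, limits Cox7a1, Cox7b and Cox6a2, which were undetected on some arrays.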

Other observations

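Within groups, the respiratory chain genes also differed between the 2 arrays. Of the 79 genes, 31 (39.2%) were higher on the second array in co-culture with PLX4720 and 53 (67.1%) in co-culture with DMSO, against 51.7% and 48.3% of all genes. In mono-culture the shares were 70.9% with PLX4720 and 31.6% with DMSO, against 51.3% and 53.1% of all genes. The median differences between the arrays of a group, second minus first, were -0.055 with PLX4720 and 0.051 with DMSO in co-culture, and 0.094 with PLX4720 and -0.086 with DMSO in mono-culture on the log2 scale, beside medians of the fold changes of 0.06 with PLX4720 in co-culture and -0.01 in mono-culture. Whether the replicate numbers stand for an order or a pairing is not stated, so no meaning is given to the sign.

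Different probes of 1 gene gave different sizes for the difference of the PLX4720 effect, co-culture minus mono-culture. In 12 genes with several kept probes, 14 of 15 other probes had the same sign as the probe used and 10 of 15 had the higher value. For Ndufs4, the probe used gave 0.17 on the log2 scale and the other 3 gave 0.49, 0.58 and 0.70. For Sdhb the values were 0.14 and 0.41, for Ndufb6 0.04 and 0.39, and for Ndufc1 0.06 and 0.29, with the probe used first. For Ndufv3 the dimmest probe gave -0.46, beside -0.04. Which transcripts these probes read was not examined.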
